A study of Sus scrofa with 18 samples.

Results

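CO-treated kidney grafts of the pig were compared with untreated grafts of the same donors 24 h after transplantation. The arrays were chosen by the source and title of each sample, which name 4 transplanted kidneys treated with CO at 24 h and 4 transplanted, untreated kidneys at 24 h, 8 of the 18 arrays of the series. The number that ends each title, 5 to 8, names the donor, and each of these donors gave 1 kidney to each group, so the kidneys form pairs 5, 6, 7 and 8. The remaining arrays hold 2 naive kidneys and the CO and untreated grafts of donors 1 to 4 at 4 h, with 4 arrays in each graft group. The labels give no strain, age or sex, no dose or route of CO, and do not say whether donor, graft or recipient received it. One label field reads air for all grafts, CO grafts included, and the source and title were followed here. Total RNA of whole kidney tissue was hybridised to an Affymetrix pig array, and the series title names ischemia reperfusion injury and the effect of CO on it as the question.

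Carbon monoxide is released in cells when heme oxygenase opens the heme ring, together with iron and biliverdin, which biliverdin reductase turns into bilirubin. HMOX1 encodes the inducible heme oxygenase and HMOX2 the constitutive one. CO binds heme iron, including that of soluble guanylate cyclase, and at low doses it has been studied as a means of limiting inflammation and cell death after ischemia and reperfusion. In a transplanted kidney the proximal tubule, which relies on mitochondrial oxidation, is a main site of such injury, and neutrophils and macrophages enter the tissue in the hours that follow.

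No gene passed the test between CO and untreated grafts at 24 h. Of 23999 probe sets tested with limma, 0 (0%) had an adjusted p under 0.05, and the smallest adjusted p was 0.9999. At an unadjusted p under 0.05 there were 281 probe sets (1.17%), 153 (0.638%) higher and 128 (0.533%) lower with CO. This is fewer than the share of 0.05 that the threshold alone would give on average with no difference at all. Levels are log2 values and differences are CO minus untreated, so a difference of 1 stands for a doubling. The differences lay between -1.79 and 1.76, with a median of -0.0046, and 21 probe sets differed by at least 1 in either direction. A 95% interval, not adjusted for the number of tests, reached 0.40 to either side of the difference in the median probe set. Smaller differences were mostly not detectable with 4 kidneys a group in the limma test, which did not use the pairing. The adjusted test asks for larger ones still, and none of the 21 probe sets that differed by at least 1 passed. Groups did not overlap, with every CO kidney above or every CO kidney below every untreated one, in 168 probe sets on the higher side (0.7%) and 116 on the lower side (0.483%).

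Some arrays stood apart. The untreated kidney of pair 8 had the narrowest spread over probe sets (SD 2.19, against 2.32 to 2.35 in CO kidneys and 2.33 to 2.34 in the other untreated kidneys) and the lowest mean correlation with the other 24 h arrays (0.968, against 0.975 to 0.983 in CO kidneys and 0.981 to 0.982 in the other untreated kidneys). Its 28S ribosomal RNA control read 10.2, against 6.35 to 7.61 in CO kidneys and 5.80 to 6.28 in the other untreated kidneys. In CO kidneys, pairs 5 and 8 had the lowest mean correlation, 0.975 each. Both kidneys of pair 8 lay at 17.0 (CO) and 15.1 (untreated) on the first principal component of all 18 arrays, apart from the 42.4 to 60.0 of the other 24 h kidneys. The beta-actin 3′ minus 5′ signal, a measure of RNA integrity, was 2.51, 1.22, 2.18 and 2.79 in CO kidneys, against 1.20, 1.84, 2.27 and 1.74 in untreated kidneys. Per-kidney values run from pair 5 to pair 8 here and throughout. The dap poly-A control read 7.95 in the untreated kidney of pair 5, against 1.43 to 1.86 in CO kidneys and 1.44 to 1.94 in the other untreated kidneys. A token in the array names, which the sources used here do not explain, placed the untreated kidney of pair 5 and the CO kidney of pair 6 in batches apart from the other 6 arrays of 24 h kidneys. Within pairs 5 and 6, CO and batch thus cannot be told apart.

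The pairs did not share a common set of large differences. The SD of the paired difference over probe sets was 0.46 in pair 5, 0.32 in pair 6, 0.30 in pair 7 and 0.52 in pair 8. In pair 5, 371 probe sets were at least 1 higher with CO (1.55%) and 718 at least 1 lower (2.99%). Pair 8 had 755 higher (3.15%) and 546 lower (2.28%). Pairs 6 and 7 had fewer, with 116 higher (0.483%) and 99 lower (0.413%) in pair 6, and 73 higher (0.304%) and 164 lower (0.683%) in pair 7. As a description over the 23999 probe sets, which share 8 arrays, the correlation between the paired differences of 2 pairs ranged from -0.14 (pairs 5 and 7) to 0.07 (pairs 5 and 8). The same direction in all 4 pairs was seen in 2192 probe sets (9.13%), 1162 higher (4.84%) and 1030 lower (4.29%). Without pair 8, 5093 probe sets had the same direction in the 3 other pairs (21.2%), 2764 higher (11.5%) and 2329 lower (9.7%), against 4999 without pair 5 (20.8%), 5127 without pair 6 (21.4%) and 5160 without pair 7 (21.5%).

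**Figure D1:**
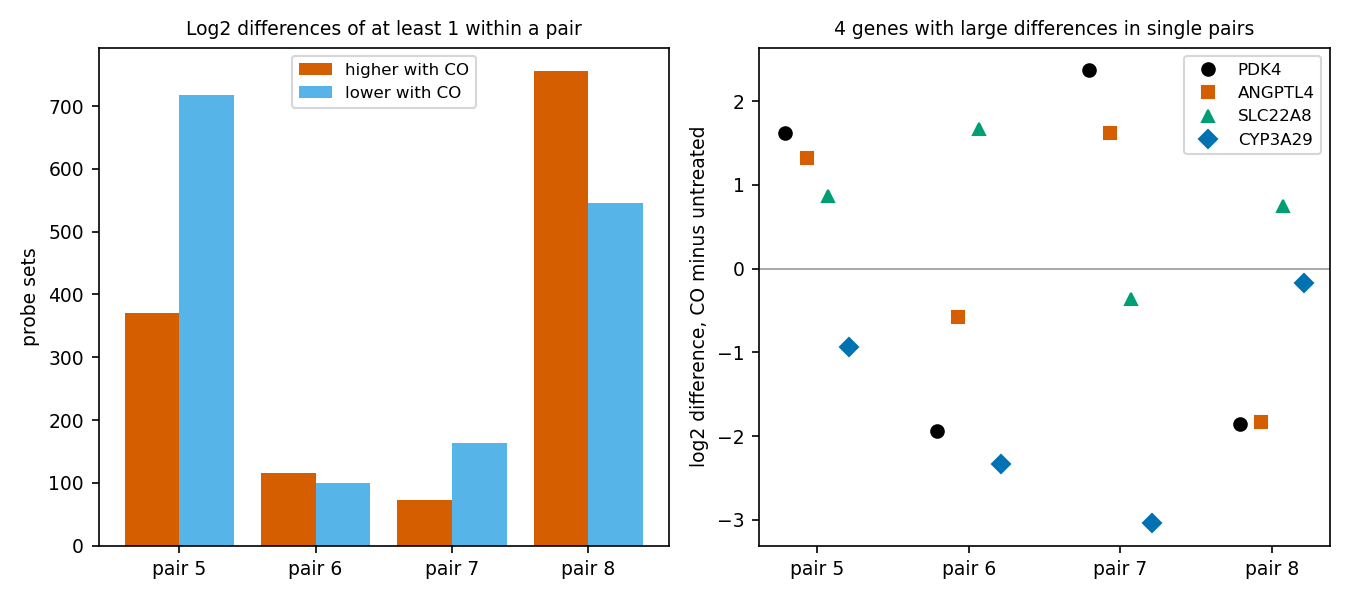
Left, bars give the number of probe sets at least 1 (log2) higher or lower in the CO kidney than in the untreated kidney of each pair, highest in pairs 5 and 8 (1089 and 1301 in all) and lowest in pairs 6 and 7 (215 and 237). Right, points give the paired log2 difference, CO minus untreated, of PDK4, ANGPTL4, SLC22A8 and CYP3A29 in each pair, with PDK4 at 1.62, -1.94, 2.37 and -1.85.

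CRISPLD2 was the one probe set at least 0.5 higher in every pair, and it encodes a secreted protein with LCCL domains. It read 3.82, 4.03, 4.32 and 3.77 in CO kidneys, against 3.31, 3.35, 3.67 and 3.09 in their untreated partners, so the groups did not overlap. Its mean difference was 0.63 ± 0.37 (SE). This SE, like every SE, interval and p of single genes in these results, comes from the limma fit, which did not use the pairing. It includes the spread between donors, while the paired differences of this probe set had an SD of 0.083. A brighter probe set of CRISPLD2 had paired differences of 0.67, 0.56, 0.83 and 0.49. On the lower side a single probe set without a gene symbol was at least 0.5 lower in every pair, at -0.77, -1.01, -0.94 and -0.61. These counts, 1 higher and 1 lower, are 0.00417% of all probe sets each.

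CRISPLD2 was 1 of the 10 genes with the largest smallest paired difference on the higher side, among probe sets whose brighter group lay above 3.92, the median level of all probe sets. ISLR, an immunoglobulin-domain protein of stromal cells, differed by 0.52, 0.72, 0.43 and 0.90 in the pairs. COL6A3, a chain of collagen VI, differed by 0.40, 0.62, 0.46 and 0.48, and the transcription factor NFIB by 0.37, 0.58, 0.63 and 0.85. The caveolar coat protein CAV1 read 4.45, 4.78, 4.42 and 4.25 in CO kidneys, against 4.15, 4.03, 3.83 and 3.54 in their untreated partners, which did not overlap. The brightest probe set of CAV1 had paired differences of 0.37, 0.42, 0.37 and 0.08. At its named probe set CAV1 stood lower still in the naive kidneys, at 2.67 and 2.99. NIPSNAP1, a mitochondrial protein, differed by 0.93, 0.54, 0.36 and 0.38, with naive levels of 7.68 and 7.73 above both graft groups. FKBP9, IPO11, MACROD1 and TP53I3 complete the 10, and the smallest paired differences of all 10 lay between 0.27 and 0.51.

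The corresponding 10 genes on the lower side included AIF1, ALOX5AP and FCGR3A. AIF1, a calcium-binding protein of macrophages, read 6.98, 8.43, 7.65 and 5.40 in CO kidneys, against 7.65, 8.81, 8.10 and 6.34 in their untreated partners. ALOX5AP, which presents arachidonate for leukotriene synthesis, read 5.86, 7.15, 6.36 and 4.81 in CO kidneys, against 6.25, 7.82, 6.84 and 5.26 in their untreated partners, and the Fc receptor gene FCGR3A had paired differences of -0.32, -0.26, -0.29 and -1.15. In these 3 genes the pairs lay further apart than the kidneys within a pair, with pair 6 highest and pair 8 lowest, so the groups overlapped. FAM129A differed by -0.71, -0.67, -0.59 and -0.41, the granule protein OLFM4 by -1.53, -0.47, -0.32 and -0.41, and ARRDC4 by -0.32, -0.58, -0.26 and -0.26. Dimmer probe sets had paired differences of -0.27, 0.42, 0.17 and -0.24 for FAM129A and -0.85, -0.18, -0.90 and 0.61 for OLFM4. The splicing factor SF3B1 read 5.93, 6.10, 5.99 and 6.16 in CO kidneys, against 6.50, 6.52, 6.31 and 6.76 in their untreated partners, with no overlap, while a brighter probe set of it had paired differences of -0.22, -0.30, -0.10 and 0.27. The remaining genes of the 10 were PIK3AP1, PTBP3 and C1H15orf48, and none of the 20 genes of both directions passed the limma test.

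Leaving out pair 8 brought further genes forward. TMEM45A, LOXL4, ITIH5 and TPRG1L, together with CRISPLD2 and ISLR, were the 6 genes named on the higher side of pairs 5, 6 and 7, again only from probe sets above the median level of 3.92. LOXL4, a lysyl oxidase of the kind that cross-links collagen, read 5.23, 5.05, 5.33 and 5.24 in CO kidneys, against 4.57, 4.57, 4.62 and 5.45 in their untreated partners, where the untreated kidney of pair 8 lay above every CO kidney. A dimmer probe set of LOXL4 had paired differences of -0.12, -0.07, -0.05 and -0.01. Another, close to background, had -0.11, 0.04, 0.09 and 0.28. ITIH5 read 4.27, 4.43, 4.47 and 4.45 in CO kidneys, against 3.77, 3.77, 4.000 and 4.19 in their untreated partners, with no overlap even with pair 8. On the lower side CYP3A29, a pig cytochrome P450 of the drug-metabolising 3A family, read 4.04, 1.35, 3.29 and 1.23 in CO kidneys, against 4.97, 3.68, 6.32 and 1.40 in their untreated partners. Its paired differences of -0.93, -2.33, -3.04 and -0.17 ran from near 0 in pair 8, where both kidneys were at or below the background level of 1.61, to the largest of pair 7. The CO kidney of pair 6, at 1.35, was also below that level, so the size of the -2.33 is uncertain. LCP2, an adaptor of T cells and myeloid cells, differed by -0.78, -0.49, -0.80 and -0.24, and CELF2, ARGLU1, QPCT and FAM129A completed the 6 genes named on the lower side. A brighter probe set of ARGLU1 had paired differences of -0.44, -0.15, -0.25 and 0.78, and one of CELF2 had -0.17, -0.46, -0.20 and 0.15. At a size of at least 0.5 in pairs 5, 6 and 7 there were 9 probe sets higher (0.0375%) and 17 lower (0.0708%). Those on the higher side include MEDAG and KDELR3, whose probe sets lay below the median level.

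SLC17A1 and LRP2 were among the 12 genes of smallest unadjusted p on the higher side. SLC17A1, an apical anion and phosphate transporter of the proximal tubule, read 5.54, 5.25, 5.49 and 6.14 in CO kidneys, against 4.65, 4.35, 5.22 and 3.98 in their untreated partners, so that the groups did not overlap. Its difference was 1.05 ± 0.36 (SE), with a 95% interval of 0.29 to 1.82, a fold of 2.08 and an unadjusted limma p of 0.00966. The naive kidneys lay far above both groups, at 7.997 and 7.71. Within pairs the difference of SLC17A1 was 0.89, 0.90, 0.26 and 2.16, with a mean of 0.69 without pair 8. LRP2, or megalin, the endocytic receptor that takes up filtered protein, read 7.81, 7.31, 7.75 and 8.56 in CO kidneys, against 6.12, 6.33, 7.88 and 6.95 in their untreated partners, higher in 3 of 4 pairs. HOGA1, a mitochondrial enzyme of hydroxyproline breakdown, differed by 0.78 ± 0.29 (SE), and the kinase SGK2 by 0.98 ± 0.35 (SE), each higher in pairs 5, 6 and 8 and lower in pair 7. In naive kidneys HOGA1 read 10.20 and 10.53 and SGK2 read 7.16 and 7.34, above every 24 h graft.

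TP53I3, a p53 target that encodes a quinone oxidoreductase, read 5.52, 5.22, 5.05 and 5.47 in CO kidneys, against 4.96, 4.66, 4.73 and 4.74 in their untreated partners. Every CO kidney lay above every untreated kidney, and the naive kidneys, at 6.76 and 6.67, above both. The difference was 0.54 ± 0.18 (SE), with paired differences of 0.55, 0.56, 0.32 and 0.73. MCRIP2 differed by 0.41 ± 0.15 (SE), TMEM237 by 0.44 ± 0.15 (SE) and SRPX2 by 0.62 ± 0.22 (SE), also with no overlap. TMEM237 and SRPX2 lay near the background level of 1.61, with means of 2.37 and 2.86 in CO kidneys. Their means in untreated kidneys were 1.92 and 2.25. A brighter probe set of MCRIP2 had paired differences of -0.15, 1.07, -0.12 and 1.01. SEPHS2 of selenium metabolism, the mitochondrial phosphate carrier SLC25A3, the clathrin light chain CLTA and EI24 ranged from 0.52 to 0.69, with overlapping groups and probe set levels under 4. Brighter probe sets of the same genes differed less, by 0.16 and 0.02 for SEPHS2, 0.12 for SLC25A3, -0.01 and 0.0022 for CLTA, and -0.04 and 0.03 for EI24. The unadjusted p of the 12 genes ran from 0.00912 to 0.0173.

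Among the 12 named genes lower with CO, PIK3AP1, an adaptor that links B cell and Toll-like receptors to PI3 kinase, had the smallest unadjusted p, 0.00209. It read 4.17, 4.84, 4.49 and 4.08 in CO kidneys, against 5.08, 4.91, 4.92 and 5.29 in their untreated partners, with no overlap, and 3.13 and 3.76 in naive kidneys. The difference was -0.65 ± 0.18 (SE), 95% interval -1.03 to -0.28, and within pairs it ranged from -1.21 in pair 8 to -0.06 in pair 6. Without pair 8 the mean paired difference was -0.47. A brighter probe set of PIK3AP1 had paired differences of -0.63, -0.40, -0.51 and -0.64. PTBP3, an RNA-binding splicing regulator, differed by -0.79 ± 0.24 (SE), and a brighter probe set of it had paired differences of -0.14, -0.79, -0.27 and -0.08. The T cell kinase LCK differed by -0.66, 0.22, -1.08 and -1.06 at the probe set of smallest p and by -0.84, 0.16, -1.68 and 0.43 at a brighter one, and Toll-like receptor gene TLR1 by -0.40, -0.51, -0.08 and -0.73. The nuclear receptor PPARA, which drives fatty acid oxidation genes, read 1.32, 1.56, 1.63 and 1.75 in CO kidneys, against 1.89, 1.81, 1.96 and 2.37 in their untreated partners, close to background.

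TCF7L2, a transcription factor of Wnt signalling, differed by -0.11, -1.15, -0.66 and -0.32. The dynactin subunit DCTN4 differed by -0.86, 0.23, -0.68 and -0.58, and its brighter probe sets had mean differences of 0.0048 and -0.09. USP9X, a deubiquitinase, differed by -0.29, -0.66, -0.21 and -0.82 at its named probe set and by -0.12, -0.07, -0.09 and 0.08 at a brighter one. CMAH, GAD1 and FSD1 were also among the 12, but all their CO kidneys were below background. Only a bound is possible there, and GAD1 was at least 1.09-fold lower in CO kidneys, while the bounds of CMAH and FSD1 were under 1. EIF1AY was below background in both groups.

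**Figure D2:**
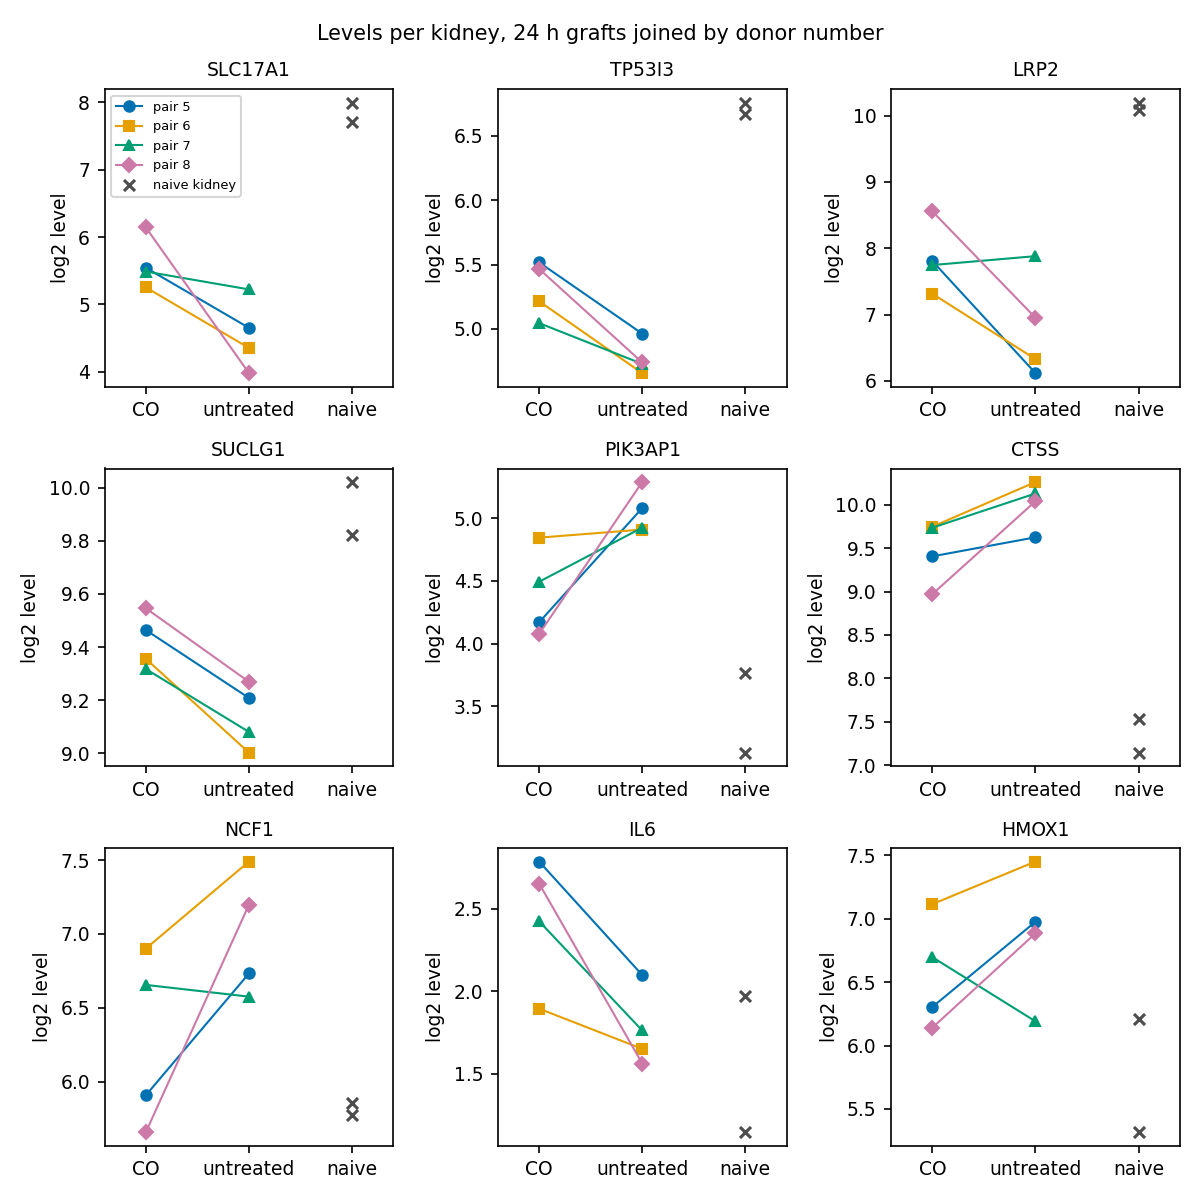
Log2 levels of 9 genes in CO kidneys, untreated kidneys and the 2 naive kidneys, with lines joining the kidneys of 1 donor. SLC17A1, TP53I3, SUCLG1 and PIK3AP1 do not overlap between CO and untreated kidneys, while LRP2, CTSS, NCF1, IL6 and HMOX1 do.

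The 27 gene lists hold 726 entries, of which 509 were measured, as 496 distinct genes. No member passed at an adjusted p under 0.05. At an unadjusted p under 0.05 there were 8 of the 496 genes (1.61%), against 1.17% of all probe sets, and 55 had the same direction in all 4 pairs, against 9.13% of all probe sets. Each gene enters at its brightest probe set. Of all probe sets 48.7% were higher with CO, beside which the counts of higher members below can be set. Members with an unadjusted p under 0.05 stand beside 0.638% of all probe sets on the higher side and 0.533% on the lower. The lists were chosen with earlier results of these data known. Counts of members beside these shares are therefore descriptions and give no independent support. The median difference was above 0 in 10 lists and below 0 in 17, and the mean level of every list overlapped between the groups. List medians are also given without single arrays or pairs. One further setting, chosen after seeing the data, leaves out the CO kidney of pair 5 and the untreated kidney of pair 8 together. In whole tissue, fewer cells of a type and less RNA per cell cannot be told apart.

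**Figure D3:**
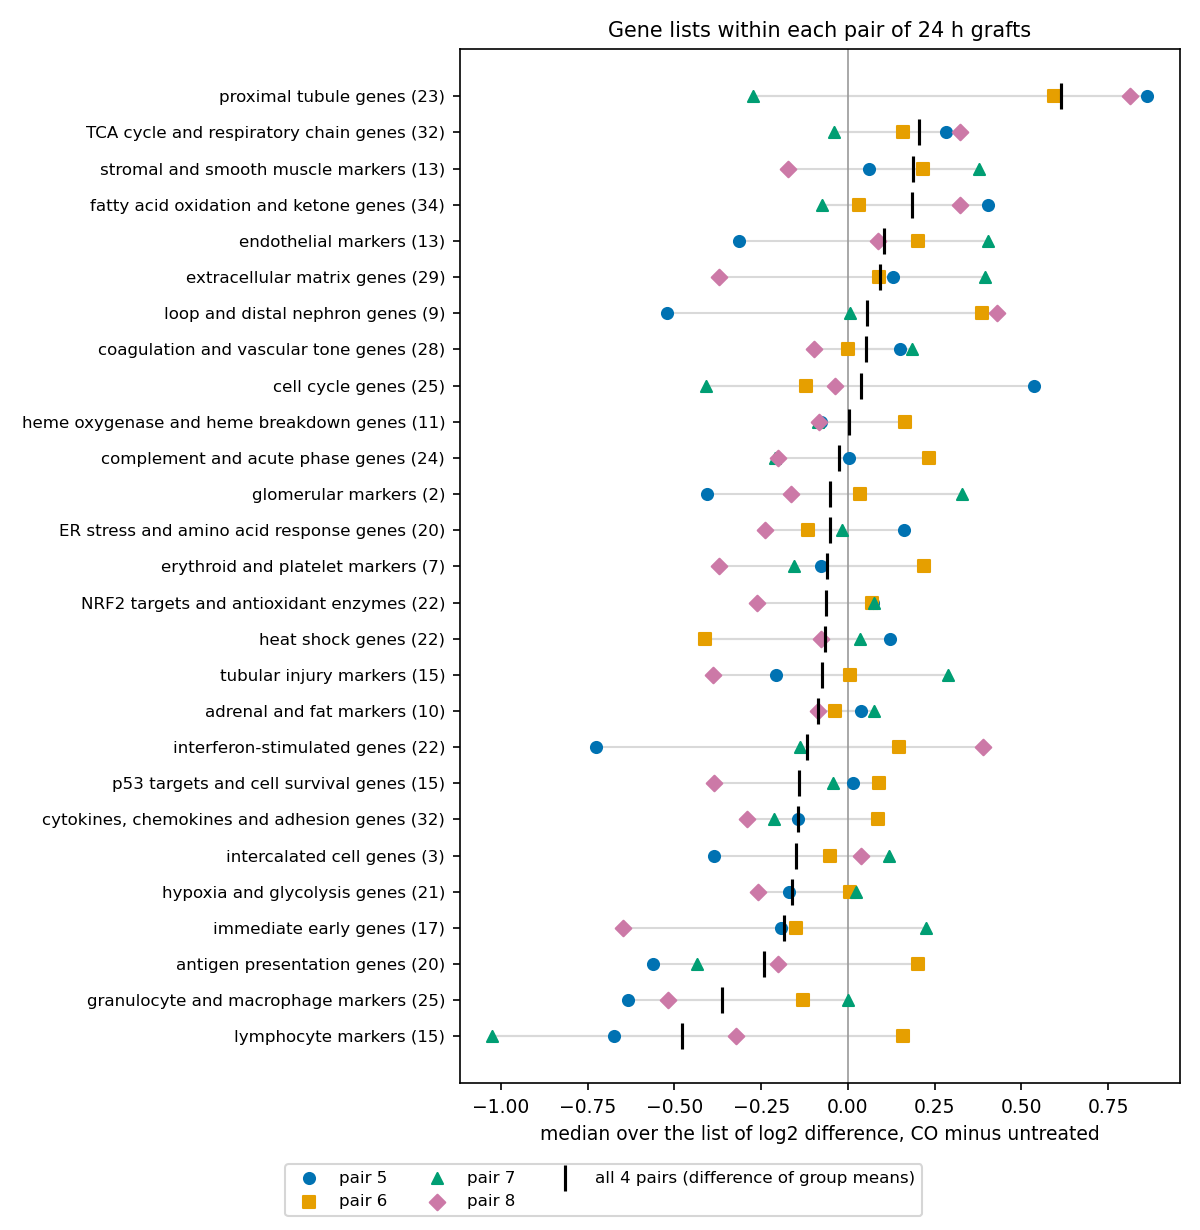
Median log2 difference, CO minus untreated, over the measured members of each of 27 gene lists (number of members in parentheses). Symbols give each pair and the bar the difference of group means. Proximal tubule genes lie highest (0.61) with pair 7 at -0.27, and lymphocyte markers lowest (-0.48) with pair 6 at 0.16.

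Proximal tubule genes had the largest positive median. Of 23 measured genes of transport and metabolism in this segment, 21 were higher and 2 lower with CO, with a median of 0.61, against -0.0046 for all probe sets. The list's mean level was 6.31, 6.13, 6.10 and 7.34 in CO kidneys, against 5.33, 5.42, 6.26 and 6.50 in untreated kidneys. Naive kidneys stood at 8.79 and 8.66. The medians within pairs were 0.86, 0.59, -0.27 and 0.81, so pair 7 ran the other way. LRP2, FBP1 and SLC5A1 had an unadjusted p under 0.05 and were higher, 3 of 23, against 0.638% of all probe sets. FBP1, fructose bisphosphatase of gluconeogenesis, read 9.67, 8.86, 8.86 and 10.19 in CO kidneys, against 7.65, 8.27, 8.73 and 9.23 in their untreated partners. SLC5A1, a sodium glucose cotransporter, read 6.01, 2.48, 4.01 and 5.55 in CO kidneys, against 2.55, 2.63, 3.07 and 4.19 in their untreated partners, with the CO kidney of pair 5 the highest.

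Further members were the water channel AQP1 at 0.91 ± 0.46 (SE), the cystine transporter subunit SLC7A9 at 0.94 ± 0.49 (SE), the organic anion transporter SLC22A8 at 0.73 ± 0.46 (SE), and PCK1 of gluconeogenesis at 0.63 ± 0.65 (SE). PCK1 rested on pair 5, with paired differences of 2.88, 0.45, -0.86 and 0.06. CYP24A1 and ANPEP were the 2 members below 0, at -0.15 and -0.04. Leaving out single arrays or whole pairs moved the median between 0.34 and 0.90, with 20 to 22 of 23 genes higher, with the lowest value without the untreated kidney of pair 6 and 0.35 without the CO kidney of pair 8. Within the 1 batch that holds both groups it was 0.41, and without the CO kidney of pair 5 and the untreated kidney of pair 8 it was 0.998. The untreated kidney of pair 7 was among the higher untreated kidneys for this list, and the CO kidney of pair 8 the highest of the CO kidneys. Actin 3′ minus 5′ signal was higher with CO in pairs 5 and 8 and lower in pairs 6 and 7, by the values above, and its part in these differences was not tested.

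Genes of the citric acid cycle and respiratory chain had small differences in 1 direction. All 32 measured genes were higher with CO, against 48.7% of all probe sets. They ran from 0.01 (COX6C) to 0.34 (NDUFS3), with a median of 0.20 and a median SE of 0.16. None had an unadjusted p under 0.05. The list's mean level was 8.78, 8.52, 8.46 and 8.69 in CO kidneys, against 8.53, 8.37, 8.46 and 8.33 in untreated kidneys, with 8.97 and 8.95 in naive kidneys. SUCLG1, a subunit of succinyl-CoA ligase, read 9.46, 9.36, 9.32 and 9.55 in CO kidneys, against 9.21, 9.003, 9.08 and 9.27 in their untreated partners. SDHB, the iron-sulfur subunit of succinate dehydrogenase, read 9.91, 9.71, 9.61 and 9.84 in CO kidneys, against 9.57, 9.35, 9.50 and 9.40 in their untreated partners. Neither gene overlapped between the groups, which 0.7% of all probe sets shared on the higher side, and the differences were 0.28 ± 0.14 (SE) and 0.31 ± 0.16 (SE). A dimmer probe set of SDHB had paired differences of -0.01, -0.34, -0.43 and 0.16. Of the 32 genes, 7 were higher in all 4 pairs, against 4.84% of all probe sets. The medians within pairs were 0.28, 0.16, -0.04 and 0.32, and without single arrays or pairs the median lay between 0.12 and 0.26, with 28 to 32 of 32 genes higher. It was 0.12 without the CO kidney of pair 5, 0.12 without pair 8, and 0.07 with 3 genes lower without the CO kidney of pair 5 and the untreated kidney of pair 8.

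Fatty acid oxidation and ketone genes had 30 of 34 members higher and 4 lower, with a median of 0.18. PPARA, which was lower, was the 1 member with an unadjusted p under 0.05. Groups did not overlap in 1 member on the higher side, ETFB, against 0.7% of all probe sets, and in 2 on the lower side, PPARA and BDH1, against 0.483%. The list's mean level was 6.68, 6.35, 6.34 and 6.70 in CO kidneys, against 6.30, 6.32, 6.32 and 6.47 in untreated kidneys, and 7.57 and 7.31 in naive kidneys. Without pair 8 this was the 1 list of 27 whose levels did not overlap between the groups. The margins were small, since the list's mean level differed by 0.03 in pair 6 and 0.03 in pair 7. With fewer kidneys a group, levels fail to overlap more readily. The 0.7% and 0.483% are for all 4 pairs, and no share of all probe sets was counted without pair 8. The count of 1 in 27 therefore does not set this list apart from the others. ETFB, the beta subunit of the flavoprotein that carries electrons from acyl-CoA dehydrogenases, read 7.60, 7.57, 7.44 and 7.43 in CO kidneys, against 7.26, 7.20, 7.23 and 6.996 in their untreated partners. FABP3, a fatty acid binding protein, differed by 0.55 ± 0.41 (SE) and the thiolase ACAA2 by 0.53 ± 0.33 (SE). PPARA and UCP2, both at -0.44, were the lowest members. The medians within pairs were 0.40, 0.03, -0.07 and 0.32, and 25 to 31 of 34 genes were higher without single arrays or pairs. The overall median was 0.10 without the CO kidney of pair 8, 0.29 without that of pair 6 and 0.20 without the CO kidney of pair 5 and the untreated kidney of pair 8.

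**Figure D4:**
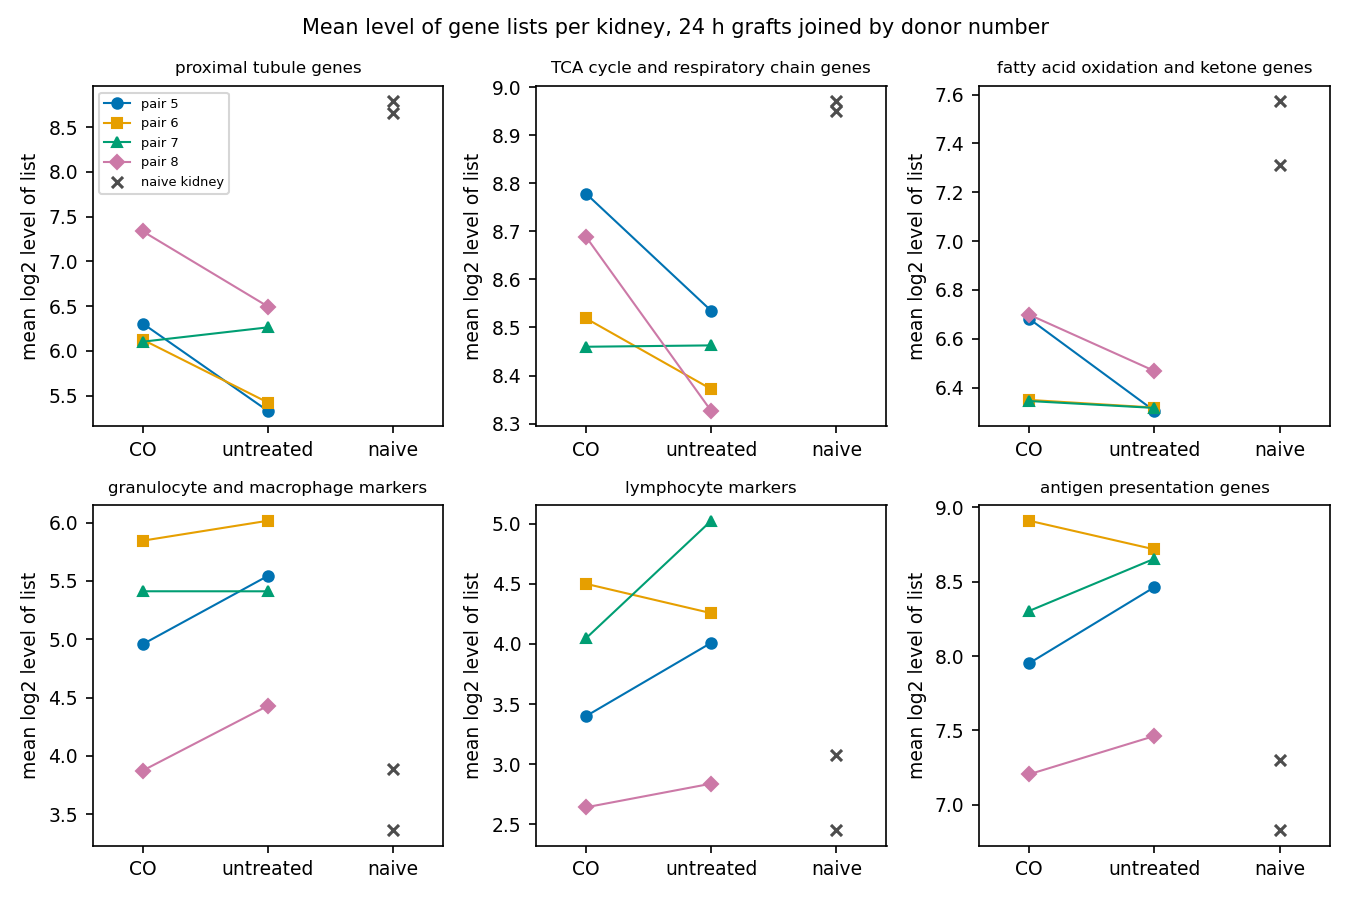
Mean log2 level of 6 gene lists in CO kidneys, untreated kidneys and the 2 naive kidneys, with lines joining the kidneys of 1 donor. For proximal tubule genes the CO kidney is higher in pairs 5, 6 and 8 and lower in pair 7, and in the 3 immune lists both kidneys of pair 8 are the lowest of the grafts.

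Other epithelial lists showed less. Loop and distal nephron genes had 5 of 9 members higher, median 0.06. This median turned to -0.09 without pair 6, -0.07 without the untreated kidney of pair 6, -0.03 without the untreated kidney of pair 7 and -0.04 without the CO kidney of pair 8. The epidermal growth factor gene EGF read 6.04, 5.04, 4.41 and 7.50 in CO kidneys, against 5.06, 4.65, 5.76 and 5.53 in their untreated partners. Its paired differences were 0.98, 0.39, -1.35 and 1.96. FXYD2, the gamma subunit of the sodium pump, differed by 0.27 ± 0.30 (SE). Intercalated cell genes were measured in 3 cases, ATP6V0A4, ATP6V1C2 and ATP6V0D2, subunits of the proton pump, with a median of -0.15, or 0.11 without pair 5. Tubular injury markers had 4 of 15 higher and 11 lower, median -0.07 (from -0.19 without pair 7 to -0.01 without the CO kidney of pair 8), with the cell cycle inhibitor CDKN1A at -0.39 ± 0.44 (SE) and the keratin KRT8 at 0.32 ± 0.38 (SE). A dimmer probe set of KRT8 differed by -0.23 ± 0.44 (SE). HAVCR1 and LCN2 had no named probe set. Glomerular markers were measured in 2 cases, the podocyte transcription factors WT1 at -0.26 ± 0.45 (SE) and TCF21 at 0.16 ± 0.37 (SE).

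Granulocyte and macrophage markers were mostly lower with CO. Of 25 measured, 2 were higher and 23 lower, with a median of -0.36 and a median SE of 0.50. Their mean level was 4.96, 5.84, 5.41 and 3.87 in CO kidneys, against 5.54, 6.02, 5.41 and 4.43 in untreated kidneys. The naive kidneys read 3.36 and 3.89, and the CO kidney of pair 8 lay within their range. NCF1, a subunit of the phagocyte NADPH oxidase and the 1 member with an unadjusted p under 0.05, read 5.91, 6.90, 6.65 and 5.66 in CO kidneys, against 6.73, 7.49, 6.58 and 7.20 in their untreated partners. The costimulatory gene CD86 differed by -0.36 ± 0.31 (SE), the chemokine receptor CCR1 by -0.56 ± 0.76 (SE) and the hemoglobin scavenger receptor CD163 by -0.26 ± 0.59 (SE). The medians within pairs were -0.63, -0.13, -0.00019 and -0.52. Without the CO kidney of pair 8 alone, the median was 0.07 and 17 of 25 genes were higher. Without the whole of pair 8 it was -0.28, with 22 of 25 lower, and without the untreated kidney of pair 8 it was -0.77. It was -0.18 without the untreated kidney of pair 6, -0.62 without the CO kidney of pair 6, -0.22 without pair 5, and -0.70 with 22 of 25 lower without the CO kidney of pair 5 and the untreated kidney of pair 8.

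Lymphocyte markers had 14 of 15 members lower, with a median of -0.48. Their mean level was 3.40, 4.50, 4.05 and 2.64 in CO kidneys, against 4.01, 4.26, 5.02 and 2.84 in untreated kidneys, and 2.45 and 3.08 in naive kidneys. CD247, the zeta chain of the T cell receptor complex, read 3.28, 4.49, 3.65 and 2.65 in CO kidneys, against 3.95, 3.91, 5.35 and 2.97 in their untreated partners, highest in the untreated kidney of pair 7. CD8B, a chain of the cytotoxic T cell coreceptor, differed by -1.25, 0.70, -0.46 and -0.73. Pair 6 ran the other way in both genes. The medians of the list within pairs were -0.68, 0.16, -1.02 and -0.32. The overall median was -0.02 without the CO kidney of pair 8, -0.04 without the untreated kidney of pair 7, -0.28 without the untreated kidney of pair 6, -0.15 without pair 7 and -0.54 without pair 8. It was -0.79 without the CO kidney of pair 6 and -0.82 without the untreated kidney of pair 8. Without the CO kidney of pair 5 and the untreated kidney of pair 8 it was -0.77, with 14 of 15 lower.

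Antigen presentation genes had 18 of 20 members lower, median -0.24, with medians of -0.56, 0.20, -0.43 and -0.20 within pairs. Their mean level was 7.95, 8.91, 8.30 and 7.21 in CO kidneys, against 8.46, 8.72, 8.65 and 7.46 in untreated kidneys. CTSS, cathepsin S, which trims the invariant chain of class II molecules, read 9.41, 9.75, 9.74 and 8.97 in CO kidneys, against 9.63, 10.26, 10.13 and 10.04 in their untreated partners, lower in 4 of 4 pairs. Its difference was -0.55 ± 0.24 (SE), with an unadjusted p of 0.0327, and the naive kidneys read 7.14 and 7.53. Dimmer probe sets of CTSS had paired differences of -0.48, -0.16, -0.47 and -1.40, and of 0.05, 0.25, -0.30 and -0.96. CIITA, the master regulator of class II genes, differed by -0.37 ± 0.37 (SE). Without the CO kidney of pair 8 the list's median was 0.06, with 14 of 20 genes higher. It was -0.11 without the untreated kidney of pair 6, -0.13 without that of pair 7, -0.56 without that of pair 8, -0.58 without the CO kidney of pair 6, and -0.51 without the CO kidney of pair 5 and the untreated kidney of pair 8.

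Interferon-stimulated genes had 8 of 22 members higher and 14 lower, median -0.12, and the pairs ran apart, at -0.73, 0.15, -0.14 and 0.39. UBD, a ubiquitin-like modifier induced by interferon gamma and TNF, read 8.19, 10.004, 8.11 and 7.60 in CO kidneys, against 8.96, 9.92, 10.22 and 8.85 in their untreated partners. GBP2, a guanylate-binding protein, differed by -1.12, 0.09, -1.98 and -0.45. Both were lower in pairs 5, 7 and 8 and close to level in pair 6. All 22 members were lower without the untreated kidney of pair 8, with a list median of -0.39, and likewise without the CO kidney of pair 7, with -0.37. The median turned to 0.10 without pair 5, 0.11 without the CO kidney of pair 5, 0.15 without the untreated kidney of pair 7 and 0.04 without the CO kidney of pair 8. Without the untreated kidney of pair 7, 13 of 22 members were higher.

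Cytokine, chemokine and adhesion genes had 9 of 32 members higher and 23 lower, median -0.14. IL6 was the 1 member with an unadjusted p under 0.05, 0.0308, and it was higher. It read 2.79, 1.89, 2.42 and 2.65 in CO kidneys, against 2.10, 1.65, 1.76 and 1.56 in their untreated partners, higher in 4 of 4 pairs but near background. Its difference was 0.67 ± 0.28 (SE), with a 95% interval of 0.07 to 1.27. CXCL8 differed by -0.31, -0.27, 0.79 and -1.64, IL1B by -0.85, 0.35, -0.40 and -0.69 and TNF by -0.44, 0.51, -0.52 and -0.62, none of them 1 way in all pairs. The monocyte chemokine CCL2 differed by -0.15 ± 0.88 (SE), the adhesion molecule ICAM1 by -0.19 ± 0.37 (SE), NOS2 by -0.14 ± 0.17 (SE) and the growth factor CSF3 by -0.38 ± 0.20 (SE). Without the CO kidney of pair 8 the list's median was 0.0031, with 16 members higher and 16 lower, and without the CO kidney of pair 6 it was -0.34.

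Heme oxygenase and heme breakdown genes had 6 of 11 members higher and 5 lower, with a median of 0.002 that lay on either side of 0 with single arrays left out, from -0.07 without the untreated kidney of pair 7 to 0.03 without pair 5. HMOX1 read 6.30, 7.12, 6.70 and 6.14 in CO kidneys, against 6.98, 7.45, 6.19 and 6.89 in their untreated partners, with naive levels of 5.32 and 6.21. It was lower with CO in pairs 5, 6 and 8 and higher in pair 7, and the 95% interval of the difference ran from -1.04 to 0.41. HMOX2 differed by -0.16 ± 0.21 (SE), 95% interval -0.60 to 0.27. BLVRA, biliverdin reductase, differed by 0.14 ± 0.30 (SE), and FECH, which inserts iron into protoporphyrin to form heme, by 0.14 ± 0.15 (SE). GUCY1B3, the heme-binding beta subunit of soluble guanylate cyclase, read 6.32, 5.28, 5.74 and 5.61 in CO kidneys, against 5.89, 5.49, 5.55 and 5.15 in their untreated partners.

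NRF2 targets and antioxidant enzymes had 10 of 22 members higher and 12 lower, median -0.06, which turned to 0.01 without pair 8, 0.07 without the untreated kidney of pair 5, 0.03 without the CO kidney of pair 7 and 0.02 without the CO kidney of pair 8. Catalase (CAT) differed by 0.61, 0.36, -0.29 and 0.57 and NQO1, a quinone reductase, by 0.10, -0.70, 0.38 and -0.83. SOD2, the mitochondrial superoxide dismutase, differed by -0.12 ± 0.22 (SE). Heat shock genes had 10 of 22 higher and 12 lower, median -0.07, and medians of 0.12, -0.41, 0.03 and -0.08 within pairs. CRYAB, a small heat shock protein, read 9.37, 8.49, 8.86 and 8.28 in CO kidneys, against 9.66, 9.68, 8.40 and 9.72 in their untreated partners, and ZFAND2A differed by -0.22, -1.15, 0.89 and -1.84. Both were lower in pairs 5, 6 and 8 and higher in pair 7. HSP70.2, an inducible HSP70, differed by -0.33 ± 0.71 (SE). The median of the heat shock list was 0.07 without pair 6 and 0.03 without the untreated kidney of pair 6.

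Immediate early genes had 15 of 17 members lower and 2 higher, median -0.18, with -0.19, -0.15, 0.22 and -0.65 within pairs. IER3 differed by -0.83, -0.0037, 0.30 and -0.60 and the phosphatase DUSP1 by -0.68, -0.11, 0.30 and -0.59. Without the untreated kidney of pair 8 the list's median was -0.05, with 7 higher and 10 lower, and without both it and the CO kidney of pair 5 it was 0.04, with 9 of 17 higher. Endoplasmic reticulum stress and amino acid response genes had 6 of 20 higher, median -0.05, or 0.02 without pair 8, 0.03 without the untreated kidney of pair 6, 0.0032 without the CO kidney of pair 8 and 0.01 without the untreated kidney of pair 8. CEBPB, a transcription factor, differed by -0.56 ± 0.39 (SE) and was lower in all 4 pairs, while PSAT1, of serine synthesis, differed by 0.44 ± 0.33 (SE). The p53 target and cell survival genes had 6 of 15 higher, median -0.14, with TP53I3 the 1 member at an unadjusted p under 0.05 and CFLAR, an inhibitor of caspase 8, at -0.28 ± 0.20 (SE). That median ran from -0.27 without pair 6 to -0.01 without the untreated kidney of pair 6.

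Endothelial markers had 9 of 13 members higher, median 0.11, with TEK, the angiopoietin receptor, at -0.14, -0.01, 0.32 and 1.27 in the pairs and LYVE1 at 0.14 ± 0.12 (SE). The endothelial median turned to -0.02 without pair 7 and -0.03 without the untreated kidney of pair 7. Stromal and smooth muscle markers had 9 of 13 higher, median 0.19. The proteoglycan decorin (DCN) read 8.17, 7.36, 8.15 and 7.64 in CO kidneys, against 6.82, 7.02, 7.65 and 7.58 in their untreated partners, and desmin (DES) differed by 0.17, 0.25, 1.30 and -0.17, the most in pair 7. The stromal median was -0.0045, with 8 of 13 members lower, without pair 7, and 0.40 without the CO kidney of pair 8. Extracellular matrix genes had 18 of 29 higher, median 0.09, with 7 of 29 higher in all 4 pairs, against 4.84% of all probe sets. TIMP3, an inhibitor of matrix proteases, differed by -0.71, -0.09, 0.03 and -1.40. The matrix median was -0.00095 without pair 7, and 0.19 without the CO kidney of pair 8.

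Coagulation and vascular tone genes had 17 of 28 members higher, median 0.05, or -0.02 without the untreated kidney of pair 7. ANGPT1, the ligand of TEK that stabilises vessels, read 2.83, 2.09, 2.26 and 2.28 in CO kidneys, against 1.86, 1.43, 2.08 and 2.05 in their untreated partners, with no overlap, and 3.98 and 4.11 in naive kidneys. The CO kidney of pair 6, at 2.09, lay just above the untreated kidney of pair 7, at 2.08. The untreated kidney of pair 6, at 1.43, was below the background level of 1.61. The vasodilator peptide gene ADM differed by 0.0023, -0.55, 0.38 and -1.66 and VEGFA by -0.89, 0.07, 0.12 and -0.19. Dimmer probe sets of VEGFA above background had paired differences of 0.46, -0.52, -0.27 and 0.18, and of -0.59, 0.22, 0.27 and -1.31. Complement and acute phase genes had 11 of 24 higher, median -0.02, with ORM1 at -0.58 ± 0.41 (SE) and CFB at -0.15 ± 0.15 (SE). A slightly dimmer probe set of CFB differed by 0.10 ± 0.34 (SE). The complement median became 0.08 without pair 7, 0.01 without the untreated kidney of pair 6 and 0.09 without the CO kidney of pair 8. Hypoxia and glycolysis genes had 6 of 21 higher and 15 lower, median -0.16. ANKRD37, a target of hypoxia-inducible factor, read 3.36, 3.40, 3.40 and 4.50 in CO kidneys, against 3.15, 3.96, 3.88 and 7.27 in their untreated partners, so the pair 8 kidneys were the highest of their groups. SLC2A3, a glucose transporter, differed by -0.27, -0.10, -0.54 and -1.76. Without the untreated kidney of pair 8 the hypoxia median was 0.02, with 14 of 21 members higher.

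Cell cycle genes had 13 of 25 members higher, median 0.04, but the pairs ran from -0.41 in pair 7 to 0.54 in pair 5. MCM3, of the replicative helicase, differed by 0.54, 0.18, 0.03 and 0.58, and the mitotic kinase PLK1 by 0.54, 0.22, -1.66 and -0.79. Without the CO kidney of pair 8 the list's median was 0.33, with 23 of 25 members higher. It was -0.27 without the CO kidney of pair 5 and -0.20 without the untreated kidney of pair 8, with 21 of 25 lower each time, and -0.47 with all 25 lower without both. Erythroid and platelet markers had 3 of 7 higher, median -0.06, with HBM at -0.27 ± 0.23 (SE) and ITGA2B at -0.12 ± 0.16 (SE). Adrenal and fat markers had 3 of 10 higher, median -0.09. Their mean level was 2.10 to 2.35 in CO kidneys, against 2.20 to 2.50 in untreated kidneys, and ADIPOQ and LEPR were below background in both groups.

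Large differences within single pairs were looked up after their values were seen and are given as values. PDK4, which shuts off pyruvate dehydrogenase in fasting, read 7.17, 6.58, 7.67 and 6.30 in CO kidneys, against 5.54, 8.53, 5.30 and 8.15 in their untreated partners. It was higher with CO in pairs 5 and 7 and lower in pairs 6 and 8, and its mean difference was 0.05 ± 0.66 (SE). The CO kidneys spanned 6.30 to 7.67 and the untreated kidneys 5.30 to 8.53. ANGPTL4, an inhibitor of lipoprotein lipase, had the same order of signs, at 1.32, -0.58, 1.62 and -1.83. CPT1A, the carnitine palmitoyltransferase of the outer mitochondrial membrane, differed by 0.49, -0.28, 0.76 and 0.24.

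In pair 5, SLC5A1 was higher with CO by 3.46 and the protease inhibitor SLPI by 3.32. SLPI read 10.43, 5.69, 5.20 and 8.31 in CO kidneys, against 7.11, 4.75, 5.29 and 7.33 in their untreated partners. The mucin gene MUC4 was lower in pairs 5, 6 and 8, at -2.39, -1.80, 0.36 and -1.59, and the phagocyte protein S100A9 differed by -2.27 in pair 5. In pair 6, SLC22A8 was higher by 1.66 and transferrin (TF) by 1.58, while the heat shock gene HSPA6 differed by -1.87 and JCHAIN, the joining chain of polymeric antibodies, by -2.11. In pair 7, TAGLN (transgelin) was 1.98, ACTA2 (smooth muscle actin) 1.71 and FN1 (fibronectin) 1.63 higher with CO, and CXCL9, an interferon-induced chemokine, differed by -2.53. TAGLN read 8.15, 9.58, 9.19 and 7.24 in CO kidneys, against 8.22, 9.36, 7.21 and 7.86 in their untreated partners, where the untreated kidney of pair 7 was the lowest of the grafts of pairs 5 to 7. In pair 8, the estrogen sulfotransferase SULT1E1 was 2.56 higher, and the largest on the lower side were ANKRD37 at -2.78 and the ER oxidase ERO1A at -2.53, with tissue factor (F3) at -1.83.

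Whether the difference between CO and untreated grafts was the same at 4 h was tested with the difference of both contrasts, which has other donors at each time. Of 23999 probe sets, 0 passed (0%) and 612 had an unadjusted p under 0.05 (2.55%). The 4 h contrast alone also had 0 passing (0%) and 787 at an unadjusted p under 0.05 (3.28%). SLC17A1 at 4 h read 6.88, 5.50, 6.85 and 7.02 in CO kidneys, against 8.19, 7.22, 6.73 and 6.97 in untreated kidneys, and the difference between the times was 1.78 ± 0.51 (SE). TP53I3 at 4 h read 5.03, 5.06, 5.45 and 5.91 in CO kidneys, against 5.78, 5.88, 5.41 and 5.98 in untreated kidneys, a difference between the times of 0.94 ± 0.26 (SE). Both were thus lower with CO at 4 h and higher at 24 h on average, without passing the test. MCRIP2 had a difference between the times of 0.74 ± 0.21 (SE), and ACSS2, which makes acetyl-CoA from acetate, of 0.81 ± 0.23 (SE). ACSS2 differed by -0.78 ± 0.17 (SE) at 4 h and 0.03 ± 0.17 (SE) at 24 h. ME1, malic enzyme, was below background in the CO kidneys at 24 h at its named probe set.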

How the data were processed

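RNA of 18 pig kidneys was measured on 1 Affymetrix pig array each, and 8 of these are the 24 h grafts. The values are log2 levels per probe set that the authors made with RMA and deposited, per the submitters' processing notes, which give no version here. They span 0.226 to 13.5, with array medians of 3.75 to 3.94. Arrays hold no read counts, so their number limits the precision. The table holds 24123 probe sets, and after removal of 124 controls the tests covered 23999. The platform annotation gives 10069 of them 1 symbol, 198 several and 13732 none. Of those with 1 symbol, 9961 matched RefSeq's Sscrofa11.1 table by identifier, and 6765 distinct genes were named.

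CO and untreated grafts were set against each other in a linear model of all 18 arrays in 5 groups without a block (lmFit and eBayes of limma 3.58.1, R 4.3.3). Tests were two-sided, and a probe set passed at an adjusted p under 0.05 (Benjamini-Hochberg). Intervals are 95% intervals, and the SE, p and interval of single genes do not use the pairing. Separate arrays of a graft group come from separate donors, and the labels name no donor for the 2 naive kidneys. Background was the 95th percentile of 17 tag control probe sets, 1.61, and a probe set was below background in a group when all its kidneys were. A bound sets the mean of the brighter group against that level.

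The labels number the donors, so the numbers pair the kidneys. After group means were removed, the 2 kidneys of a donor correlated at 0.16, 0.35, 0.27 and 0.39 in pairs 5 to 8. Each CO kidney correlated most with its own partner among the untreated kidneys of 24 h. At 4 h this did not hold for donors 1 and 2, at -0.20 and 0.07. An exact test over 4 pairs cannot pass, so paired differences are given as values.

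Named genes were the 12 of smallest unadjusted p each way, the 10 each way with the largest smallest-sized paired difference over 4 pairs and 6 each way over pairs 5 to 7 (both only from probe sets whose brighter 24 h group mean was above 3.92, the median of all probe set means), 16 measured genes named beforehand for CO and injury, 2 members of smallest p from each list, and 5 of smallest p between the times. The members and lists were chosen with earlier results of these data known. The fit was tested on simulated data. Alternatives were the variance model, a filter on dim probe sets at the 30th percentile, quantile normalisation, array weights, batch or donor as a block, fewer arrays and each array or pair left out. Figures used matplotlib 3.10.9 in Python 3.11.15.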

Additional observations from a re-analysis of the deposited data

Results flagged for a closer look

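Within groups of 4 kidneys, 17 of 300 sets of values had 1 kidney far from the other 3, 5.67% where chance gives about 5%. The untreated kidney of pair 8 accounted for 10 of them. Its spread over probe sets was 2.19 (SD), its mean correlation with the other 24 h arrays 0.968 and its 28S control 10.2. Its mean list levels were 4.04 for cytokines, chemokines and adhesion genes and 6.47 for fatty acid oxidation and ketone genes. Its gene levels were 1.78 for SRPX2, 5.45 for LOXL4, 7.92 for CCL2, 3.47 for NOS2 and 9.80 for SOD2.

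In CO kidneys, the bioB hybridisation control was 4.86 in pair 6, the lowest. The proximal tubule list stood at 7.34 in the CO kidney of pair 8 and the NRF2 and antioxidant list at 8.41 in that of pair 5, both the highest of the CO kidneys. KRT8 was lowest at 9.11 in the CO kidney of pair 7, and ANKRD37 highest at 4.50 in that of pair 8. In untreated kidneys, CRYAB was lowest at 8.40 in pair 7 and CFLAR lowest at 6.90 in pair 5. No cause was tested for these values.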

How the results depend on the processing

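The count of probe sets past the threshold between CO and untreated grafts at 24 h was 0 in all 25 alternative settings, with 127 to 835 at an unadjusted p under 0.05 and a smallest adjusted p of 0.942. The difference between 24 h and 4 h had 0 in all 32 settings, with 290 to 1229. With donor as a replicate block, 0 probe sets passed in the 8 paired arrays (693 at an unadjusted p under 0.05), 0 with donor fixed over 16 arrays (440) and 0 with donor random (431, donor correlation 0.128), and the pairing changed no call. In the fits without 1 array or 1 pair the unadjusted count ran from 194 to 599. Probe sets of 1 direction in all pairs numbered 2192, against 4999 to 5160 without 1 pair and 2 at a size of at least 0.5. List levels that did not overlap numbered 0, and 1 without pair 8, where fewer kidneys were compared.

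Of 116 named genes, 90 kept their direction in every setting that held them and 26 did not. The filter on dim probe sets held 101 of the 116. None passed. With array weights, ACSS2 was -0.18, ATP6V1C2 0.078, BLVRA -0.042, MCM3 -0.0035 and VEGFA 0.016. With batch as a block and within the shared batch, NQO1 was 0.030 and OLFM4 0.25. In the paired fit (replicate block) without pair 8, ACSS2 was -0.11 and CXCL8 0.071, and without pair 5, ATP6V1C2 was 0.19, CCL2 0.070 and VEGFA 0.0024. Chosen after seeing the data, the fit without the CO kidney of pair 5 and the untreated kidney of pair 8 gave ACSS2 -0.15, ANKRD37 0.10, ATP6V0A4 0.020, ATP6V1C2 0.15, BLVRA -0.13, GUCY1B3 -0.10, IER3 0.065, MCM3 -0.20, NOS2 0.039, SLC2A3 0.0041, TEK -0.13 and VEGFA 0.25. With 1 array or 1 pair left out, the ranges of the genes that changed sign were ACSS2 -0.13 to 0.16, ADM -0.89 to 0.033, ANKRD37 -1.37 to 0.0016, ATP6V1C2 -0.36 to 0.19, BLVRA -0.017 to 0.26, C1H15orf48 -1.46 to 0.17, CCL2 -0.54 to 0.33, CCR1 -0.94 to 0.039, CD163 -0.88 to 0.24, CXCL8 -0.74 to 0.071, EGF -0.087 to 1.11, FCGR3A -0.89 to 0.096, ICAM1 -0.42 to 0.043, LCP2 -1.28 to 0.014, NOS2 -0.21 to 0.034, OLFM4 -1.26 to 0.10, SOD2 -0.27 to 0.041, TCF21 -0.014 to 0.30 and VEGFA -0.47 to 0.020. Those of C1H15orf48, FCGR3A, LCP2, CCL2, ICAM1, CD163, CCR1 and EGF ended in the other sign without the CO kidney of pair 8. Those of NOS2, ADM, ANKRD37, SOD2, VEGFA and ACSS2 did so without the untreated kidney of pair 8. No cause of these shifts was tested.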
